A study of Mus musculus with 6 samples.

Results

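Amino acid and peptide transporters are membrane proteins that carry the products of protein digestion into and out of the intestinal epithelium. The members were the rows of the deposited gene table whose symbol places them in solute carrier family Slc1, Slc3, Slc6, Slc7, Slc15, Slc36, Slc38 or Slc43. The rule found 65 genes among the 18159 of the table, and 47 of the 65 had enough reads to be tested. One of them, Slc7a6os, matched by its symbol only: it is named for its position opposite Slc7a6 and is not a transporter.

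Poly(A) RNA came from mice aged 12 days. By their titles the samples are intestinal epithelial cells, whereas the design text speaks of enteroids, which are cultured epithelial organoids. Of the 6 libraries, 3 were titled Git2-knockout and 3 wild type. The genotype field of the first group reads Git2 knockdown, and the strain and the altered part of Git2 were not stated in what was used here. Git2 encodes a scaffold protein and was still present at 17.4, 15.5 and 16.8 CPM (counts per 1e+06 reads, scaled by the TMM factors that edgeR computes) in the libraries labelled Git2-knockout, against 22.2, 23.7 and 22.7 CPM in wild-type. That partial reduction (log2 fold change -0.47, SE 0.07, edgeR adjusted p = 4.44e-05) does not check the genotype, so directions are those of the libraries as labelled.

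Libraries labelled Git2-knockout held 16284414 to 16837158 estimated reads and wild-type libraries 18753649 to 19106581. The members took 0.536% to 0.547% of the reads in the libraries labelled Git2-knockout and 0.529% to 0.535% in wild-type. The labels do not tell whether the libraries of a group had separate animals behind them, so each p-value reflects the scatter among these 3 libraries and that scatter may be technical. All 8 epithelial markers were expressed and 6 fell, with a summed TPM (a level per transcript length) of 10129 to 10217 in the libraries labelled Git2-knockout and 10221 to 10566 in wild-type. Markers of absorptive enterocytes, the cells of nutrient uptake, were mostly lower in the first group: 7 of 8 fell and 1, Sis, rose (0.92). Their summed TPM was 28623 to 29696 against 40575 to 41279. In CPM the most abundant of them were Apoa4 (10172 against 15354) and Apoa1 (4659 against 8057), and the next, Alpi, fell by 0.23. Fibroblast and smooth muscle markers were higher, with 8 of 9 tested rising and a summed TPM of 70.2 to 75.3 against 20.5 to 21.4. Erythroid markers rose in 4 of 5 tested, with a summed TPM of 302 to 329 against 83.2 to 87.4. Endothelial markers rose in 6 of 7, with a summed TPM of 35.0 to 38.8 against 15.3 to 16.3. These sums, and the TPM sums of marker lists below, are not adjusted for a general difference in TPM. On the log2(TPM + 1) scale the median of all tested genes was 0.14 higher in the libraries labelled Git2-knockout. Beside these marker counts, 29.6% of all tested genes rose and 27.4% fell. No listed marker found in the table was at 0 in all libraries. The part of these marker shifts in the transporter results was not tested, and in such bulk samples fewer cells of a type and less RNA per cell cannot be told apart.

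Protein digested in the gut lumen crosses the brush border as free amino acids and as di- and tripeptides. Apical carriers load the enterocyte with the help of sodium or proton gradients, exchangers trade one amino acid for another, and basolateral carriers pass the load to the blood. Several Slc7 carriers are light chains that need a heavy chain, Slc3a1 or Slc3a2, to reach the membrane. Other carriers sit on lysosomes and report amino acid supply to the mTOR kinase complex, and the Slc6 family also holds transporters for neurotransmitters, creatine and taurine.

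Of the 47 tested members, 11 rose and 13 fell relative to wild-type (edgeR, threshold 0.05 on p adjusted over all genes tested). That is 51.1% of the tested members. Of all 13558 genes tested, 29.6% rose and 27.4% fell, 57% in all, so the share of members called was no higher than that of the whole table. The groups did not overlap in 29 of the 47 members (61.7%), against 62.9% of all tested genes. The median log2 fold change of the tested members was 0.02, the same as that of all genes, 0.02, and the median absolute log2 fold change was 0.19, against 0.25 for all genes. Among called members the median absolute value was 0.34, and 1 member changed at least 2-fold. The families went different ways: 5 of 9 tested Slc38 genes rose and 1 fell, both Slc3 heavy chains fell, 5 of 10 tested Slc6 genes fell and 2 rose, and no Slc15 gene passed the test.

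**Figure D1:**
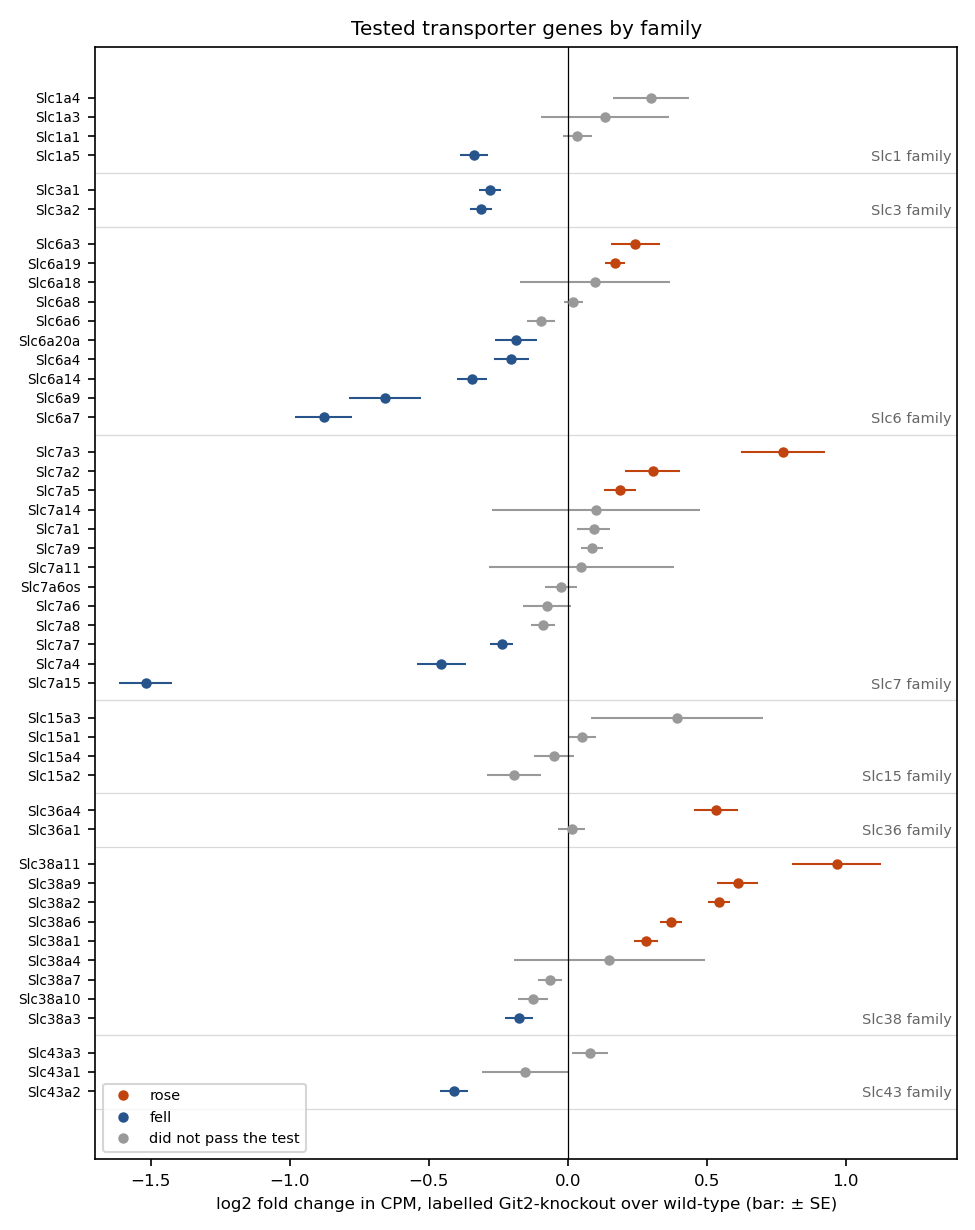
Log2 fold change in CPM of the libraries labelled Git2-knockout over wild-type for the 47 tested members, by family, with bars of ± SE (n = 3 libraries each). Orange points rose and blue points fell at an edgeR adjusted p of 0.05, and grey points did not pass; Slc7a15 lies lowest at -1.52 and Slc38a11 highest at 0.97.

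The most abundant members per transcript length were Slc7a9, Slc6a19, Slc6a8 and both heavy chains. Slc7a9, the light chain of the apical exchanger for cystine and cationic amino acids, averaged 543 ± 9.31 TPM in the libraries labelled Git2-knockout and 451 ± 8.46 TPM in wild-type (SD, n = 3 each, here and below). Slc6a19, the main sodium-coupled carrier of neutral amino acids in the brush border, followed with 426 ± 9.70 and 335 ± 2.44 TPM. The creatine transporter Slc6a8 had 394 ± 12.2 TPM in the first group and 348 ± 5.44 TPM in wild-type. The heavy chains Slc3a2 (329 ± 4.87 against 364 ± 5.03 TPM) and Slc3a1 (284 ± 11.3 against 308 ± 2.09 TPM) came next. In TPM the median of all tested genes lay 0.14 higher on the log2 scale in the libraries labelled Git2-knockout. For the members, TPM therefore serves to rank genes and CPM to compare groups.

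The summed TPM of all 65 members was 3625, 3757 and 3738 in the libraries labelled Git2-knockout and 3410, 3362 and 3397 in wild-type. In CPM the sums were 5301, 5388 and 5399 against 5394, 5360 and 5417, and the groups overlapped. Slc6 and Slc7 genes made up the greatest part of the TPM, with 1020, 1093 and 1078 TPM for Slc6 and 1009, 999 and 985 TPM for Slc7 in the libraries labelled Git2-knockout. In wild-type the Slc6 sum was 939, 918 and 923 TPM and the Slc7 sum 914, 893 and 922 TPM. Within the families the level was uneven: Slc6a19 and Slc6a8 far exceeded the neurotransmitter carriers, and 18 members had at most 10.9 estimated reads in any library.

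**Figure D2:**
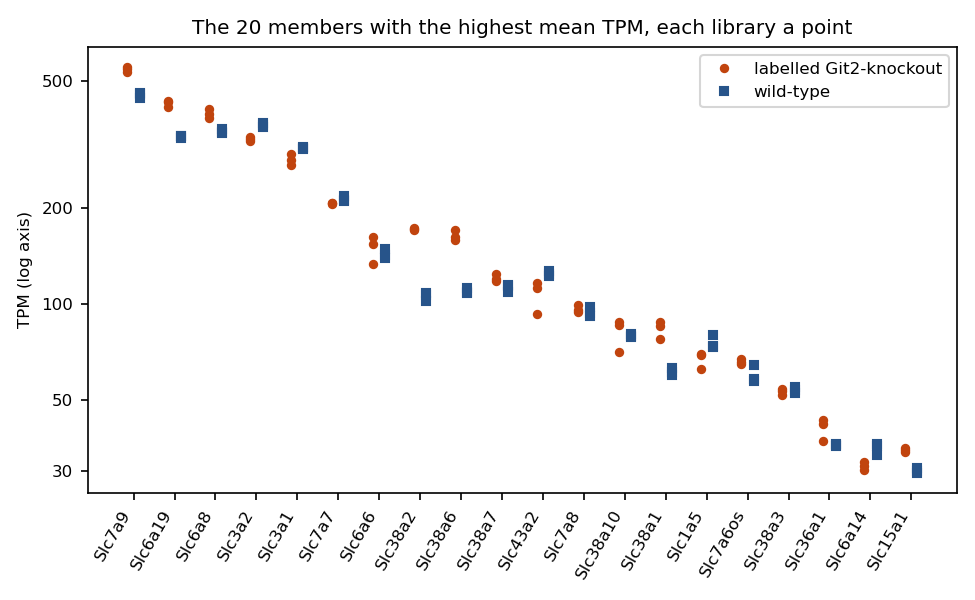
TPM on a log axis of the 20 members with the highest mean TPM, each library a point, with the libraries labelled Git2-knockout (orange circles) left of wild-type (blue squares). Slc7a9 is highest in both groups, and Slc38a2 and Slc38a6 show a wide gap, with 172 and 164 TPM in the libraries labelled Git2-knockout against 106 and 110 TPM in wild-type.

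Both heavy chains fell relative to wild-type. Slc3a1, which escorts Slc7a9 to the brush border, was at 280, 275 and 293 CPM in the libraries labelled Git2-knockout and at 338, 346 and 347 CPM in wild-type. Slc3a2, the partner of the basolateral light chains, was at 295, 279 and 287 CPM, against 355, 352 and 363 CPM in wild-type. For each gene the highest library labelled Git2-knockout lay below the lowest wild-type library. The log2 fold change of Slc3a1 was -0.28 (SE 0.04, edgeR adjusted p = 1.73e-05), and Slc3a2 fell by 0.31 (SE 0.04, edgeR adjusted p = 5.07e-06). Both calls held with the length and GC trends removed, with Slc3a1 at -0.33 and Slc3a2 at -0.14. The ratio of Slc3a1 to Slc3a2 reads was 0.986 ± 0.0351 in the libraries labelled Git2-knockout and 0.964 ± 0.0166 in wild-type, and the groups overlapped.

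The stretches before the start sites of both heavy chains are shown because these genes moved together. RefSeq promoter windows were found for 47 of the 65 members, on the GRCm38.p6 build. They were searched on both strands for CAAAGTCCA, a site of the enterocyte factor HNF4A, for GTTAAT, a half-site of the epithelial factor HNF1, and for TGATGNAA, the composite site of ATF4 in the amino acid response, whose letters do not contain one another. In the 250 bases before the start, 0.384% of all 32851 promoters held CAAAGTCCA, 6.43% held GTTAAT and 3.45% held TGATGNAA. Among the 64 promoters of members, CAAAGTCCA was found only in that of Slc3a1, GTTAAT in 5 promoters and TGATGNAA in 4. Capitals mark a match, and a match is a description of the letters. The Slc3a1 stretch lies at chr17:85028097-85028346 on the plus strand and the Slc3a2 stretch, with none of these letters, at chr19:8713898-8714147 on the minus strand.
Slc3a1: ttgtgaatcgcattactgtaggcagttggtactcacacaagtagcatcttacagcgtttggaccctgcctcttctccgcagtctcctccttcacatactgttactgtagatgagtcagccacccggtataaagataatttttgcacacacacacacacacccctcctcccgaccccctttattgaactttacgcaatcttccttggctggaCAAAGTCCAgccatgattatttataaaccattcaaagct
Slc3a2: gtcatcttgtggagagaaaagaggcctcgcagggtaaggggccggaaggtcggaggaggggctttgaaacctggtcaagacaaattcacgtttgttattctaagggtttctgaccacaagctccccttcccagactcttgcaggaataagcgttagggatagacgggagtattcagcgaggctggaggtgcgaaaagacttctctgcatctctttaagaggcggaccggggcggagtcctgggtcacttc

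Of the light chains, Slc7a7 fell, Slc7a5 rose, and Slc7a9, Slc7a8 and Slc7a6 did not pass the test. Slc7a9 was at 403, 382 and 377 CPM in the libraries labelled Git2-knockout and at 362, 359 and 372 CPM in wild-type. Its groups did not overlap, but it did not pass the test (log2 fold change 0.09, edgeR adjusted p = 0.0734, 95% interval of the fold 1.00 to 1.13). It passed when libraries were scaled by their totals (0.12, edgeR adjusted p = 0.0149) and when the length and GC trends were removed (0.17, edgeR adjusted p = 2.85e-05). The ratio of Slc7a9 to Slc3a1 reads was 1.44, 1.39 and 1.29 in the libraries labelled Git2-knockout, against 1.07, 1.04 and 1.07 in wild-type, a 1.29-fold higher ratio. Slc7a7, which exports cationic amino acids across the basolateral membrane, was at 175, 171 and 170 CPM in the libraries labelled Git2-knockout and at 201, 200 and 208 CPM in wild-type. Slc7a7 fell by 0.24 (SE 0.04, edgeR adjusted p = 1.08e-04), but stood at -0.12 with both trends removed and at -0.05 on the log2(TPM + 1) scale (limma adjusted p = 0.275).

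Slc7a5, the carrier of large neutral amino acids found in growing cells, was at 47.0, 44.5 and 49.2 CPM in the libraries labelled Git2-knockout and at 41.2, 43.1 and 39.4 CPM in wild-type. It rose by 0.19 (SE 0.06, edgeR adjusted p = 0.0102), and the call was lost without wild-type replicate 3 (0.0683) or Git2-knockout replicate 3 (0.0986), and with the length trend removed (0.178), all edgeR adjusted p. Slc7a8, a basolateral exchanger of neutral amino acids, averaged 150 ± 4.06 CPM against 160 ± 4.15 CPM in wild-type (log2 fold change -0.09, edgeR adjusted p = 0.0857), and passed without Git2-knockout replicate 1 (-0.13, 0.00457) and with both trends removed (-0.17, edgeR adjusted p = 4.62e-04). Slc7a6, a relative of Slc7a7, was at 13.7 ± 1.01 CPM against 14.5 ± 0.981 CPM (log2 fold change -0.08, edgeR adjusted p = 0.482). The reads of each light chain relative to Slc3a2 did not overlap between the groups: the ratio was higher 1.41-fold for Slc7a5, 1.18-fold for Slc7a6, 1.17-fold for Slc7a8 and 1.05-fold for Slc7a7. These ratios are not corrected for length or GC: with both trends removed the log2 fold changes were 0.21 for Slc7a5, -0.18 for Slc7a6, -0.17 for Slc7a8 and -0.12 for Slc7a7, against -0.14 for Slc3a2. Slc7a6 and Slc7a8 then lay below Slc3a2. Over all 6 ratios compared, the smallest p that 3 libraries against 3 allow in a two-sided exact permutation test is 0.1, which 5 of them reached, 0.12 after Benjamini-Hochberg adjustment.

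**Figure D3:**
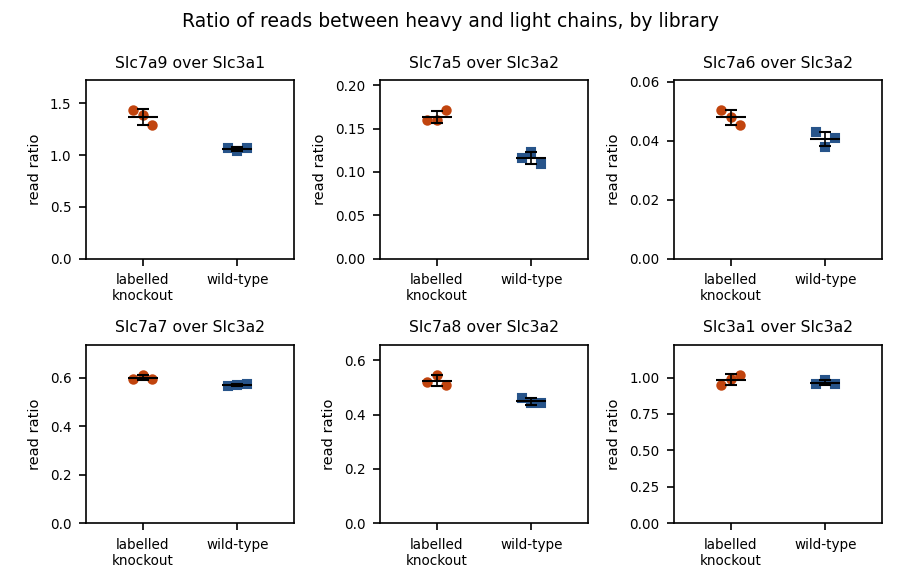
Ratio of estimated reads between heavy and light chains in each library, libraries labelled Git2-knockout (orange) left of wild-type (blue), with mean and SD bars (n = 3). The Slc7a9 to Slc3a1 ratio is 1.37 ± 0.0760 against 1.06 ± 0.0191, while the ratio of the heavy chains to each other overlaps.

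The largest change among the members was in Slc7a15, in mice a light chain that prefers aromatic amino acids. It was at 6.13, 6.39 and 5.30 CPM in the libraries labelled Git2-knockout and at 16.6, 16.9 and 17.6 CPM in wild-type. Every library labelled Git2-knockout lay far below every wild-type library, at 0.349 of the wild-type level (95% interval 0.304 to 0.401). The log2 fold change was -1.52 (SE 0.10, edgeR adjusted p = 3.05e-09), and it ran from -1.59 to -1.31 over all 20 alternatives. Slc7a15 and Slc6a7 were also the members that passed a test against a 1.5-fold change (edgeR adjusted p = 5.14e-07 and 0.0325). The stretch before the Slc7a15 start, at chr12:8599067-8599316 on the minus strand of GRCm38.p6, is shown because of this change; its capitals are GTTAAT read on the other strand.
Slc7a15: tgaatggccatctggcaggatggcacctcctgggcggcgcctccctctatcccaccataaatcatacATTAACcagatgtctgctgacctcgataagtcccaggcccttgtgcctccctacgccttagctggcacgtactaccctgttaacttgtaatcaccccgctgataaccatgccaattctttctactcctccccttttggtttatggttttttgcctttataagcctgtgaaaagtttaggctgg

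Among the other Slc7 genes, carriers of cationic amino acids rose in part. Slc7a3 rose by 0.77 (SE 0.15, edgeR adjusted p = 3.57e-04), with 6.86, 5.21 and 4.89 CPM in the libraries labelled Git2-knockout and 3.39, 3.10 and 3.41 CPM in wild-type. Slc7a2 rose by 0.30 (SE 0.10, edgeR adjusted p = 0.015), at 8.21 ± 0.0263 against 6.65 ± 0.142 CPM, but it stood at -0.03 with the length trend removed and at -0.12 with both trends removed. Its call was also lost without wild-type replicate 2 (edgeR adjusted p = 0.0514). Slc7a1, the most abundant of these carriers in CPM, averaged 45.3 ± 3.03 CPM against 42.5 ± 2.08 CPM and did not pass (0.09, edgeR adjusted p = 0.200), while it stood at -0.21 with the length trend removed (9.21e-04). Slc7a4, a relative of this group, fell by 0.45 (SE 0.09, edgeR adjusted p = 3.29e-04), with 20.4, 15.5 and 18.96 CPM in the libraries labelled Git2-knockout and 23.9, 26.1 and 25.2 CPM in wild-type. Slc7a11, the cystine importer of the oxidant response, was low, at 0.810 ± 0.213 CPM against 0.783 ± 0.260 CPM, and the 95% interval of its fold ran from 0.634 to 1.69. Slc7a14, at 0.573 ± 0.0806 against 0.535 ± 0.186 CPM, and Slc7a6os, at 43.1 ± 1.10 against 43.8 ± 3.09 CPM, did not pass the test.

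Among Slc6 genes the chief apical carrier was higher and several less abundant members were lower. Slc6a19 was at 712, 715 and 730 CPM in the libraries labelled Git2-knockout and at 636, 634 and 648 CPM in wild-type, with no overlap. It rose by 0.17 (SE 0.04, edgeR adjusted p = 6.66e-04), a fold of 1.13 (95% interval 1.07 to 1.19). It did not pass after removal of the length trend (0.04, edgeR adjusted p = 0.270), of the GC trend (0.08, 0.0542) or of both (-0.0049, 0.902).

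Slc6a14, a carrier of neutral and cationic amino acids with a broad range, was at 47.9, 44.4 and 47.5 CPM in the libraries labelled Git2-knockout and at 60.6, 60.1 and 56.8 CPM in wild-type. It fell by 0.34 (SE 0.05, edgeR adjusted p = 4.21e-05), and by 0.84 with the GC trend removed. Slc6a7, known as the proline transporter of brain synapses, was at 8.01, 8.96 and 7.65 CPM in the libraries labelled Git2-knockout and at 15.7, 13.2 and 16.3 CPM in wild-type. Slc6a7 fell by 0.88 (SE 0.10, edgeR adjusted p = 2.52e-06), the second largest fall among the members. The glycine transporter Slc6a9 was at 4.19, 4.22 and 3.36 CPM in the libraries labelled Git2-knockout and at 5.76, 6.41 and 6.39 CPM in wild-type, and fell by 0.66 (SE 0.13, edgeR adjusted p = 4.17e-04). Of 8 markers of enteric neurons and glia, 3 were expressed enough to test, with a median log2 fold change of 0.09, and the list had a summed TPM of 67.0 to 73.6 against 59.6 to 60.9.

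The remaining Slc6 calls were small and depended on single libraries or on the scaling. Slc6a20a, the carrier of proline and other imino acids, was at 22.4 ± 2.38 CPM in the libraries labelled Git2-knockout and 25.5 ± 0.562 CPM in wild-type (-0.19, edgeR adjusted p = 0.0445). Its call was lost without wild-type replicate 1 (0.0702), 2 (0.0868) or 3 (0.123) and without Git2-knockout replicate 1 (0.106), all edgeR adjusted p. Reads of Slc6a20a can be shared with its close copy Slc6a20b, which had at most 8.93 estimated reads in a library. The serotonin transporter Slc6a4, which clears serotonin released by enteroendocrine cells, was at 21.9 ± 0.277 against 25.2 ± 0.877 CPM and fell by 0.20 (edgeR adjusted p = 0.0122), a call lost on the log2(TPM + 1) scale (-0.04, limma adjusted p = 0.582). The dopamine transporter Slc6a3 was at 12.1 ± 0.295 against 10.2 ± 0.614 CPM and rose by 0.24 (edgeR adjusted p = 0.0266). The Slc6a3 call was lost without wild-type replicates 1 (0.102) or 3 (0.0698), without Git2-knockout replicates 2 (0.0861) or 3 (0.0748), and with DESeq2 (0.137).

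Slc6a8 and the taurine transporter Slc6a6 did not pass the test. Slc6a8 was at 682 ± 7.61 CPM in the libraries labelled Git2-knockout and 673 ± 7.80 CPM in wild-type, and the 95% interval of its fold ran from 0.963 to 1.07. With the length trend removed it stood at -0.12 (edgeR adjusted p = 0.00116), and on the log2(TPM + 1) scale at 0.18. Slc6a6 was at 360, 418 and 406 CPM against 433, 421 and 412 CPM (-0.10, edgeR adjusted p = 0.113), and passed without Git2-knockout replicate 2 (-0.15, 0.0158) and with the length trend removed (-0.36, 3.9e-09). Slc6a18, a relative of Slc6a19, had 1.09 ± 0.224 and 1.02 ± 0.166 CPM and did not pass.

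**Figure D4:**
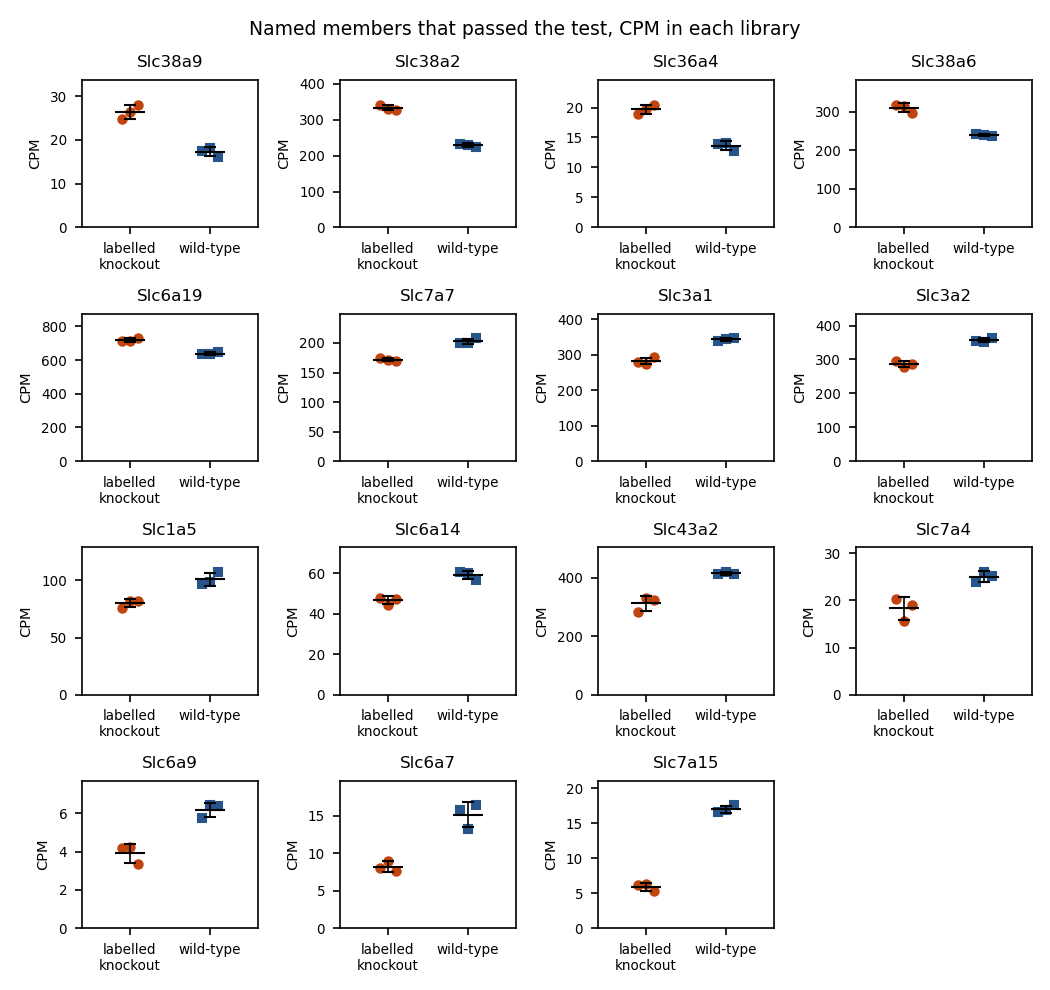
CPM in each library of members that passed the test and were picked by smallest p or highest TPM. Libraries labelled Git2-knockout (orange) lie left of wild-type (blue), with mean and SD bars (n = 3), and each axis starts at 0. In every panel the groups do not overlap, as in 62.9% of all tested genes. Slc38a9 is first at 26.4 against 17.3 CPM and Slc7a15 last at 5.94 against 17.0 CPM. Slc38a11 (0.97) and Slc7a3 (0.77) rose more than Slc38a9 but are not drawn.

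Glutamine and alanine carriers of the Slc38 family rose more often than they fell. Slc38a2, a sodium-coupled carrier of small neutral amino acids known to be induced when amino acids are scarce, was at 342, 331 and 327 CPM in the libraries labelled Git2-knockout and at 233, 230 and 223 CPM in wild-type. It rose by 0.54 (SE 0.04, edgeR adjusted p = 1.71e-08), and by 0.19 with both trends removed, still past the threshold. Slc38a6 was at 318, 314 and 297 CPM against 242, 238 and 238 CPM and rose by 0.37 (SE 0.04, edgeR adjusted p = 1.25e-06), or by 0.13 with both trends removed. Slc38a9, a lysosomal carrier that senses arginine for the mTOR complex, was at 24.8, 26.4 and 28.1 CPM in the libraries labelled Git2-knockout and at 17.5, 18.2 and 16.2 CPM in wild-type. The Slc38a9 rise of 0.61 (SE 0.07, edgeR adjusted p = 3.44e-06) was lost with both trends removed (0.10, 0.206). All 3 of these genes had groups that did not overlap.

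Slc38a1, a close relative of Slc38a2, was at 249, 263 and 273 CPM in the libraries labelled Git2-knockout and at 219, 215 and 212 CPM in wild-type and rose by 0.28 (SE 0.04, edgeR adjusted p = 3.61e-05). Its direction turned with the length trend removed (-0.03, edgeR adjusted p = 0.514) and with both trends removed (-0.12, 0.00402). Slc38a11 rose by 0.97 (SE 0.16, edgeR adjusted p = 8.29e-05) from a low level, with 4.61, 6.44 and 5.36 CPM in the libraries labelled Git2-knockout and 2.37, 2.88 and 3.14 CPM in wild-type. Slc38a3, a glutamine carrier, was at 56.4 ± 2.49 CPM against 63.8 ± 1.35 CPM and fell by 0.18 (SE 0.05, edgeR adjusted p = 0.00751), a call lost with the GC trend removed (-0.05, 0.417) and on the log2(TPM + 1) scale (-0.01). Slc38a7, a lysosomal glutamine exporter, averaged 172 ± 3.87 and 179 ± 5.43 CPM (-0.06, edgeR adjusted p = 0.201), and passed without Git2-knockout replicate 1 (0.0311) and with the length trend removed (0.00121). Slc38a10 had 131, 153 and 153 CPM in the libraries labelled Git2-knockout and 156, 160 and 161 CPM in wild-type (-0.13, edgeR adjusted p = 0.0615), a value that passed under 9 alternatives, among them DESeq2 (0.0443), RLE scaling (0.0318) and leaving out Git2-knockout replicate 2 (0.0168) or 3 (0.0211). Slc38a4, at 0.868 ± 0.428 and 0.784 ± 0.107 CPM, did not pass the test (0.15, edgeR adjusted p = 0.735, 95% interval of the fold 0.669 to 1.84).

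The summed CPM of the Slc38 family was 1302, 1316 and 1316 in the libraries labelled Git2-knockout and 1113, 1105 and 1102 in wild-type, 1.19-fold higher. That sum is not corrected for length or GC. With both trends removed Slc38a2 (0.19), Slc38a6 (0.13) and Slc38a11 (0.62) still rose. Slc38a1 and Slc38a10 then fell (both -0.12), and Slc38a9 did not pass (0.10). The Slc3 sum was 575, 554 and 579 CPM against 693, 698 and 710 CPM, 0.814 of wild-type. The stretch before the Slc38a2 start, at chr15:96699729-96699978 on the minus strand of GRCm38.p6, is shown because Slc38a2 had the smallest p of the members that rose; none of the 3 searched motifs lies in it, and 72.0% of its bases were G or C.
Slc38a2: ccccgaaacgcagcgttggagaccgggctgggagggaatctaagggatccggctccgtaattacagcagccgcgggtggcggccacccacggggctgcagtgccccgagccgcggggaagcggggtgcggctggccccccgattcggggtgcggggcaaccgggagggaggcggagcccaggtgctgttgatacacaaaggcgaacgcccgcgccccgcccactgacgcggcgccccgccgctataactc

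Of the 4 tested carriers of acidic and neutral amino acids in the Slc1 family, 1 fell and none rose. Slc1a5, an exchanger of glutamine and other neutral amino acids, was at 76.2, 81.7 and 82.2 CPM in the libraries labelled Git2-knockout and at 97.3, 98.5 and 108 CPM in wild-type. Slc1a5 fell by 0.34 (SE 0.05, edgeR adjusted p = 4.09e-05), or by 0.17 on the log2(TPM + 1) scale. Slc1a1, the epithelial transporter of glutamate and aspartate, was at 41.1, 42.0 and 43.2 CPM against 41.4, 39.7 and 42.2 CPM, and the groups overlapped (0.03, edgeR adjusted p = 0.611, 95% interval of the fold 0.947 to 1.11). It stood at -0.12 with both trends removed (0.0448). Slc1a4, a carrier of alanine, serine and cysteine, was at 4.37, 4.92 and 5.83 CPM against 4.20, 3.898 and 4.20 CPM (0.30, edgeR adjusted p = 0.0736) and passed without Git2-knockout replicate 1 (0.0308). Slc1a3, known from glia, had 1.66 ± 0.328 and 1.51 ± 0.271 CPM and did not pass.

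Peptide carriers showed no call in either direction. Slc15a1, the main di- and tripeptide importer of the brush border, was at 48.2, 47.0 and 47.2 CPM in the libraries labelled Git2-knockout and at 44.6, 45.6 and 47.2 CPM in wild-type. The groups overlapped, and the 95% interval of its fold ran from 0.962 to 1.12 (0.05, edgeR adjusted p = 0.401). On the log2(TPM + 1) scale Slc15a1 stood at 0.21 (limma adjusted p = 0.00426), where all genes had a median of 0.14. The lysosomal peptide and histidine carrier Slc15a4 was at 18.96 ± 0.345 against 19.6 ± 1.17 CPM (-0.05, edgeR adjusted p = 0.572). Slc15a2, a peptide carrier best known from the kidney, was at 8.13, 7.38 and 8.01 CPM against 9.36, 9.03 and 8.52 CPM, with no overlap but short of the threshold (-0.19, edgeR adjusted p = 0.102). It passed with the GC trend removed (-0.43, 0.00165). Slc15a3 was at 1.15 ± 0.399 and 0.874 ± 0.193 CPM. None of the 4 tested genes had an unadjusted p under 0.05, and DESeq2 called none. Of all tested genes edgeR called 57% and DESeq2 47.7%.

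In the Slc36 family, Slc36a4, a carrier of proline and tryptophan, was at 18.9, 19.7 and 20.5 CPM in the libraries labelled Git2-knockout and at 13.9, 14.2 and 12.8 CPM in wild-type. It rose by 0.53 (SE 0.08, edgeR adjusted p = 2.49e-05), or by 0.21 with both trends removed. Slc36a1, which moves small amino acids out of lysosomes and across the brush border, was at 88.3, 98.0 and 96.7 CPM against 92.8, 92.9 and 94.7 CPM (0.01, edgeR adjusted p = 0.834). It stood at -0.21 with the length trend removed (1.03e-04). Among the facilitators of family Slc43, Slc43a2, a basolateral exit route for large neutral amino acids, was at 284, 330 and 324 CPM in the libraries labelled Git2-knockout and at 413, 421 and 412 CPM in wild-type. Slc43a2 fell by 0.41 (SE 0.05, edgeR adjusted p = 4.67e-06), and by 0.70 with the length trend removed. Slc43a3, a carrier of purine bases, had 36.2 ± 2.55 and 34.3 ± 2.17 CPM, and Slc43a1 had 2.93 ± 0.210 and 3.26 ± 0.285 CPM; neither passed.

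The 18 members below the filter had 0 to 10.9 estimated reads in any library. They include Slc1a2, Slc1a6, Slc1a7, Slc6a2, Slc6a5, Slc6a11, Slc6a13, Slc6a15, Slc6a17, Slc6a20b, Slc6a21, Slc7a10, Slc7a13, Slc15a5, Slc36a2, Slc36a3 and Slc38a8. Most are known from brain or kidney, among them the GABA transporters Slc6a11 and Slc6a13, the noradrenaline transporter Slc6a2 and the glial glutamate transporter Slc1a2. Of these, 4 had no read in any library labelled Git2-knockout. They were not tested.

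The members that rose had longer transcripts than those that fell. The length implied by reads and FPKM had a median of 4341 bases in the 11 members that rose (range 3425 to 7928), 2395 bases in the 13 that fell (1721 to 6675) and 3348 bases in 18 of the 23 that were not called. The median GC content was 47.6% in those that rose, 53.0% in those that fell and 52.2% in those not called. With the length trend removed from all genes, 7 members rose and 20 fell. With both trends removed 7 rose and 18 fell, and 17 of the 24 calls were kept with their sign. On the log2(TPM + 1) scale, where 75.3% of all calls were upward, 20 members rose and 9 fell. In all alternatives but the test against a 1.5-fold change, 14 of the 24 calls held wherever the gene was tested: the rises of Slc7a3, Slc36a4, Slc38a2, Slc38a6 and Slc38a11, and the falls of Slc1a5, Slc3a1, Slc3a2, Slc6a7, Slc6a9, Slc6a14, Slc7a4, Slc7a15 and Slc43a2.

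**Figure D5:**
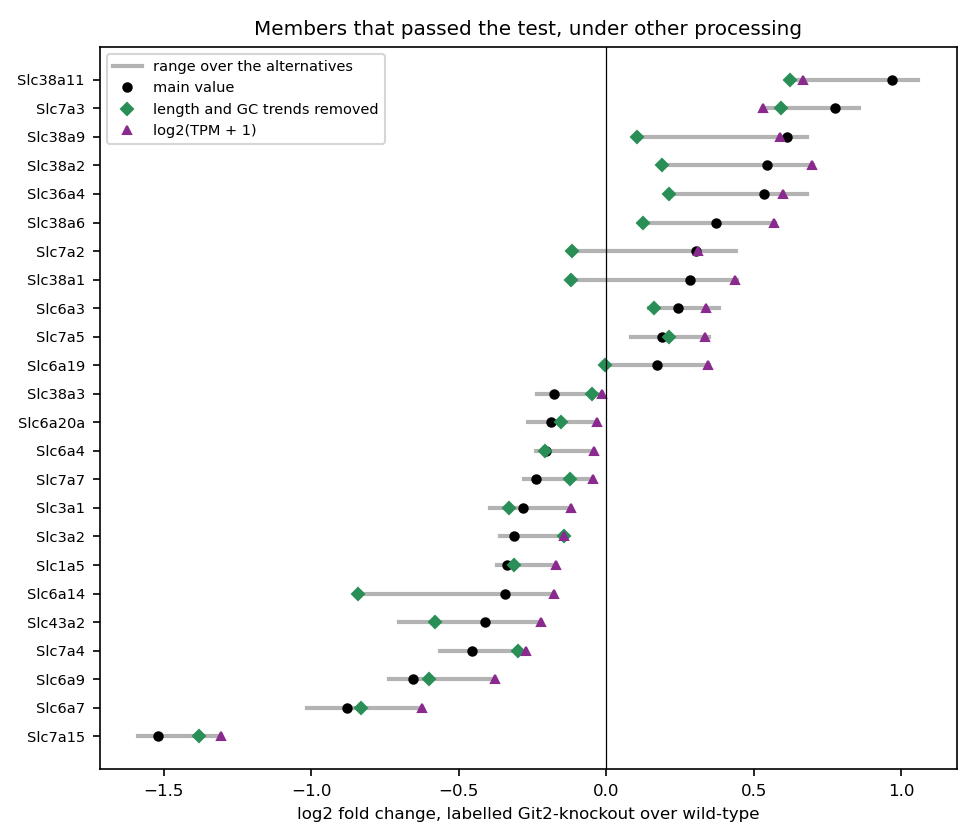
Log2 fold change of the libraries labelled Git2-knockout over wild-type for the 24 members that passed the test: the main value (black), the range over the alternatives except the 1.5-fold test (grey), the value with length and GC trends removed (green) and the value on the log2(TPM + 1) scale (purple). Slc38a1, Slc7a2 and Slc6a19 reach 0 or below, while Slc7a15 stays between -1.59 and -1.31.

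Of 15 tested brush border peptidases and partners of the transporters, 9 fell and 3 rose, with a median log2 fold change of -0.20. Of all tested genes 27.4% fell and 29.6% rose, with a median of 0.02. Anpep, the aminopeptidase that frees amino acids from peptides, was at 460 ± 10.6 CPM in the libraries labelled Git2-knockout and 648 ± 1.55 CPM in wild-type and fell by 0.49 (edgeR adjusted p = 1.93e-08). The scaffold genes Slc9a3r1 (-0.49) and Pdzk1 (-0.44), whose proteins anchor apical carriers, fell with it. The 3 that rose were Mep1a (0.13), Enpep (0.09) and Ggt5 (1.39, at 0.851 against 0.321 CPM). The summed TPM of the list overlapped, at 8075 to 8532 in the libraries labelled Git2-knockout and 8360 to 8388 in wild-type. Of the absorptive enterocyte markers 7 of 8 fell. Of 12 tested genes in a list of other solute carriers, not all of them amino acid carriers, 3 rose and 5 fell. The lysosomal exporter Slc17a5 rose by 0.37, at 1506 ± 15.5 against 1167 ± 5.85 CPM. The mitochondrial carriers Slc25a39 (-0.47) and Slc25a15 (0.31) went opposite ways.

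Genes of the response to amino acid shortage and of lysosomal sensing were called in both directions. Of 20 genes of the amino acid stress response 8 fell and 3 rose, with a median of -0.08, beside 27.4% and 29.6% of all tested genes. Those that rose were Cebpg (0.22), Nupr1 (0.30) and Eif2ak4 (0.23), chosen for mention after their values were seen. The regulator Atf4 (-0.03) and the asparagine synthetase gene Asns (0.07) did not pass. Phgdh, the first enzyme of serine synthesis, was at 38.7 ± 1.73 CPM in the libraries labelled Git2-knockout and 67.2 ± 5.85 CPM in wild-type, a log2 fold change of -0.80 (edgeR adjusted p = 4.97e-08). Shmt2, the mitochondrial serine hydroxymethyltransferase (-0.60), and Ddit4, an inhibitor of the mTOR complex (-0.50), fell too. Of 19 genes of lysosomal amino acid sensing 8 fell and 4 rose, with a median of -0.18. Lamtor4, a subunit of the lysosomal anchor of the mTOR complex, fell by 0.72, Flcn fell by 0.46, and the small GTPase gene Rragd rose by 0.39.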

How the data were processed

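Poly(A) RNA was selected with oligo-dT, per the labels' protocols. The authors deposited 1 table of 18159 genes with an estimated count, a TPM and an FPKM for each of the 6 libraries, per the file headers. Between 58.9% and 69.2% of the estimated counts per library were not whole. HISAT, Bowtie2, RSEM and GRCm39 stand in the submitters' processing notes. No version, annotation or strand setting was stated in what was used here, so reads of overlapping genes (9 members overlap a coding gene in RefSeq) cannot be told apart. Among these 9 are the called genes Slc3a1, Slc6a9, Slc7a3, Slc7a7 and Slc38a6.

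Counts were rounded and tested in R 4.3.3 with edgeR 4.0.16: filterByExpr (13558 genes), TMM, robust quasi-likelihood test, Benjamini-Hochberg adjustment over all genes tested, threshold 0.05, two-sided. SE is the log2 fold change over the square root of F. Members, lists and tests were chosen with earlier results of these data known. Full values are given for up to 3 called members with the smallest p and the 2 with the highest TPM per family, the 10 with the highest TPM, and a list of intestinal transporters; of partner lists, up to 3 called genes. Alternatives used DESeq2 1.42.0, limma 3.58.1, other scalings and filters, loess removal of length (93.1% of tested genes covered) and GC trends (97.9%), a replicate block and leaving out each library. Replicates differed by more than counting noise, with a chi-square per gene of 1.58 to 2.84 among wild-type libraries. Git2-knockout replicate 1 stood apart from replicates 2 (7.15) and 3 (5.29), which differed from each other by 1.95. Without Git2-knockout replicate 1, edgeR called 60.4% of all genes tested, against 57%. Between groups the chi-square per gene was 29.9 to 42.7. The steps were also run on simulated counts in which few genes changed and every gene had the same dispersion. These data differ in that, so the run does not measure error rates here. Some items are not reported here.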

Additional observations from a re-analysis of the deposited data

How the results depend on the processing

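The members that rose numbered 11 and those that fell 13. Neither count moved by more than 1.5 times with DESeq2 or limma-voom, with scaling by RLE, by the upper quartile or by totals, with the low-count filter dropped or raised to 5 CPM in 3 libraries, or with the GC trend removed. Leaving out 1 library gave 9 to 12 rises and 12 to 15 falls of members, and 3430 to 4082 rises and 3150 to 4261 falls of all genes. With the length trend removed, 7 members rose and 20 fell. With both trends removed 7 rose, and of all genes 2212 rose; with the GC trend alone 2672 rose. The test against a 1.5-fold change called 0 members up and 2 down (445 and 160 of all genes); without that margin edgeR called 11 up. On the TPM scale 20 members rose with either pseudocount (1 or 0.1), and 1890 and 1880 of all genes fell, with the median of all genes shifted by 0.14 and 0.165. RLE, upper quartile and total scaling put 49.7%, 47.2% and 57.8% of all calls upward, against 51.9%; length, GC and both trends removed put 43.2%, 41.8% and 34.9% there.

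Of the values past the threshold in the main test or in the alternative, those that turned sign with the length trend removed were Slc36a1 (-0.21), Slc38a1 (-0.0273), Slc6a8 (-0.12), Slc7a1 (-0.21) and Slc7a2 (-0.0295). With both trends removed they were Slc1a1 (-0.12), Slc38a1 (-0.12), Slc6a19 (-0.0049), Slc7a1 (-0.17) and Slc7a2 (-0.12), and on the TPM scale Slc7a6os (0.14 with either pseudocount). Values past the threshold in neither also turned sign, among them Slc15a1 with both trends removed (-0.11) and Slc7a8 on the log2(TPM + 1) scale (0.03). The cause was not tested. With the replicate number as a block 11 members rose and 14 fell; same-numbered libraries did not deviate together (correlations 0.0409, -0.00113 and 0.0498), so the numbers are not taken to pair samples. Low counts limit members under 1 CPM.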

Other observations

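Members lay on 19 chromosomes of the RefSeq annotation of GRCm38.p6, some as direct neighbours with 0 coding genes between them. Slc38a1, Slc38a2 and Slc38a4 followed each other on chromosome 15; Slc38a1 and Slc38a2 rose (0.28 and 0.54) while Slc38a4 was near 1 CPM or below. Slc6a18 and Slc6a19 were neighbours on chromosome 13, with 2 coding genes between them and Slc6a3. There Slc6a19 (0.17) and Slc6a3 (0.24) rose and Slc6a18 stayed near 1 CPM. The calls of Slc38a1, Slc6a19 and Slc6a3 were each lost with the length trend removed, and 57% of all tested genes were called. Slc36a1, Slc36a2 and Slc36a3 were neighbours on chromosome 11, and Slc36a1 alone had enough reads to test. The heavy chains, which both fell, lay on separate chromosomes, Slc3a1 on 17 and Slc3a2 on 19.

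Other marker lists held calls too, where 57% of all tested genes were called (29.6% rose and 27.4% fell). Goblet cell markers fell in 5 of 6, with a summed TPM of 2554 to 2616 in the libraries labelled Git2-knockout and 2903 to 3047 in wild-type. Enteroendocrine markers rose in 3 of 6 and fell in 1, with 415 to 448 TPM against 384 to 394 TPM. That gap is not adjusted for the higher TPM median of all genes (0.14 on the log2(TPM + 1) scale). In CPM, Chga fell (144 against 160 CPM) and Chgb did not pass (0.05, edgeR adjusted p = 0.321). B cell markers fell in 5 of 5, with 7.65 to 9.34 TPM against 19.3 to 20.5 TPM, and pancreatic acinar markers fell in 3 of 3 tested, with 28.7 to 30.2 TPM against 38.1 to 41.3 TPM. Of 8 macrophage markers 2 rose (C1qa by 0.46 and C1qb by 0.64) and 1 fell (Csf1r, -1.12), with a median of 0.08. The list had 133 to 136 TPM against 163 to 166 TPM, a sum dominated by Csf1r. Csf1r was at 90.7 against 197 CPM, and Cd68, the next most abundant, at 15.9 against 14.5 CPM. The 1 testable T cell marker fell.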
